A study of Mus musculus with 6 samples.

Results

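Amino acids cannot cross the plasma membrane by diffusion, and cells take them up and exchange them through carriers of several solute carrier (SLC) families. The rows described here are those of the deposited gene table whose symbol belongs to the SLC1, SLC3, SLC6, SLC7, SLC16, SLC36, SLC38 or SLC43 family, leaving out the creatine carrier Slc6a8. The rule found 44 of 13283 genes. Of these, 34 belong to the amino acid transporter families, 9 to the SLC16 monocarboxylate carriers, which are kept apart, and 1, Slc7a6os, is a gene beside Slc7a6 that encodes no transporter.

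The cells are described as brown adipocytes, differentiated from preadipocytes of an immortalized mouse BAT line with stable Cas9 expression. The 3 MICT1 KO libraries (genotype MICT1-CRISPR KO) came from pools, not clones, of cells transduced with lentivirus carrying an sgRNA against MICT1, a microprotein of brown fat. The 3 control libraries (genotype WT in the labels) came from cells given a scrambled sgRNA and are called Scr. All 6 cultures went through the same adipogenic differentiation, in a medium with insulin, T3 and rosiglitazone, and received 10 µM forskolin, which raises cAMP, for 6 h on day 6. The comparison therefore asks how gene expression differed between MICT1 KO and Scr cultures after differentiation and stimulation, and there was no unstimulated group. The adipocyte content of the cultures may differ, as the markers below show. Nothing in the labels tells which sgRNA each MICT1 KO library received, and MICT1 itself was not analysed here, so that the labels were not checked on the targeted gene.

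The deposited value of a gene is read here as an estimate of its reads divided by a size factor of the library. The values sum to between 16104616 and 16616825 per library. Of 12507 genes tested with limma-trend, 56.9% had an adjusted p under 0.05, 28.3% lower and 28.5% higher in MICT1 KO cells. Adipocyte markers differed between the groups. All 10 on a list, among them Adipoq, Fabp4 and Plin1, were lower in MICT1 KO libraries, with a summed level of 7486 to 8992 CPM (reads scaled to a common library total) in Scr and 952 to 1349 CPM in MICT1 KO libraries. Of 7 brown adipocyte markers, Ucp1 (log2 fold change -2.71, adjusted p = 0.00112) and Ebf2 (log2 fold change 1.24, adjusted p = 2.03e-05) were in the table and the other 5 were not analysed here. They summed to only 5.08 to 5.90 CPM in Scr and 8.47 to 11.9 CPM in MICT1 KO libraries, so the brown identity of the cultures rests on the labels. The 8 preadipocyte or fibroblast markers in the table summed to 2244 to 2618 CPM in Scr and 3658 to 3838 CPM in MICT1 KO libraries. In such bulk libraries fewer adipocytes and less RNA of a gene per adipocyte cannot be told apart, and the part of this shift in the differences below was not tested. The 4 listed preadipocyte or fibroblast markers that rose were Dcn, Ly6a, Col1a1 and Pdgfrb, and Dlk1 and Pdgfra were lower. Of other cell types, 3 macrophage markers (6.33 to 9.86 CPM over the 6 libraries), 2 glial markers (0.491 to 1.34 CPM) and 2 muscle markers (3.37 to 5.74 CPM) had summed levels that overlapped between the groups, and the endothelial marker Cdh5 rose (log2 fold change 1.71, adjusted p = 0.00275) at 0.369 to 2.03 CPM. The other markers on these lists, Adgre1 and Ptprc among them, were not analysed here.

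These carriers work in different ways. SLC7 light chains pair with an SLC3 heavy chain, mostly Slc3a2 (4F2hc, also called CD98), and exchange one amino acid for another. SLC1, SLC6 and SLC38 carriers use the sodium gradient to accumulate amino acids such as glutamate, taurine, glutamine and alanine, and so supply what the exchangers trade. Some members stand apart from the plasma membrane or from amino acids. Slc38a9 senses arginine on the lysosome, Slc38a7 and Slc36a1 are also found there, Slc6a17 is known from synaptic vesicles, Slc6a2 carries noradrenaline, and Slc43a3 carries purine nucleobases. In the SLC16 family Slc16a1 (MCT1) and Slc16a3 (MCT4) carry lactate and pyruvate, whereas Slc16a10 (TAT1) carries aromatic amino acids.

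In these forskolin-treated cultures a few carriers made up most of the expression. On the per-length scale (RPKM, reads scaled for exon length and library total), the 6 genes Slc3a2, Slc38a2, Slc7a5, Slc1a5, Slc6a6 and Slc7a6 held 68.4% to 69.9% of the summed RPKM of the 34 genes in the Scr libraries, and 64.4% to 65.1% in the MICT1 KO libraries. Slc3a2 and Slc38a2 led in Scr, at 62.4 ± 5.11 RPKM (SD, n = 3) and 62.1 ± 2.12 RPKM (SD, n = 3), and did not differ beyond the spread of their libraries. With the length of the longest coding transcript in place of all exons, Slc38a2 stood first and Slc3a2 second in both groups, and Slc1a5 moved ahead of Slc7a5 in Scr. In total the 34 genes summed to 364 to 389 RPKM in Scr and 435 to 461 RPKM in MICT1 KO libraries, whereas the 9 SLC16 genes summed to less in MICT1 KO (203 to 208 RPKM) than in Scr (236 to 242 RPKM). Neither sum overlapped between the groups.

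**Figure D1:**
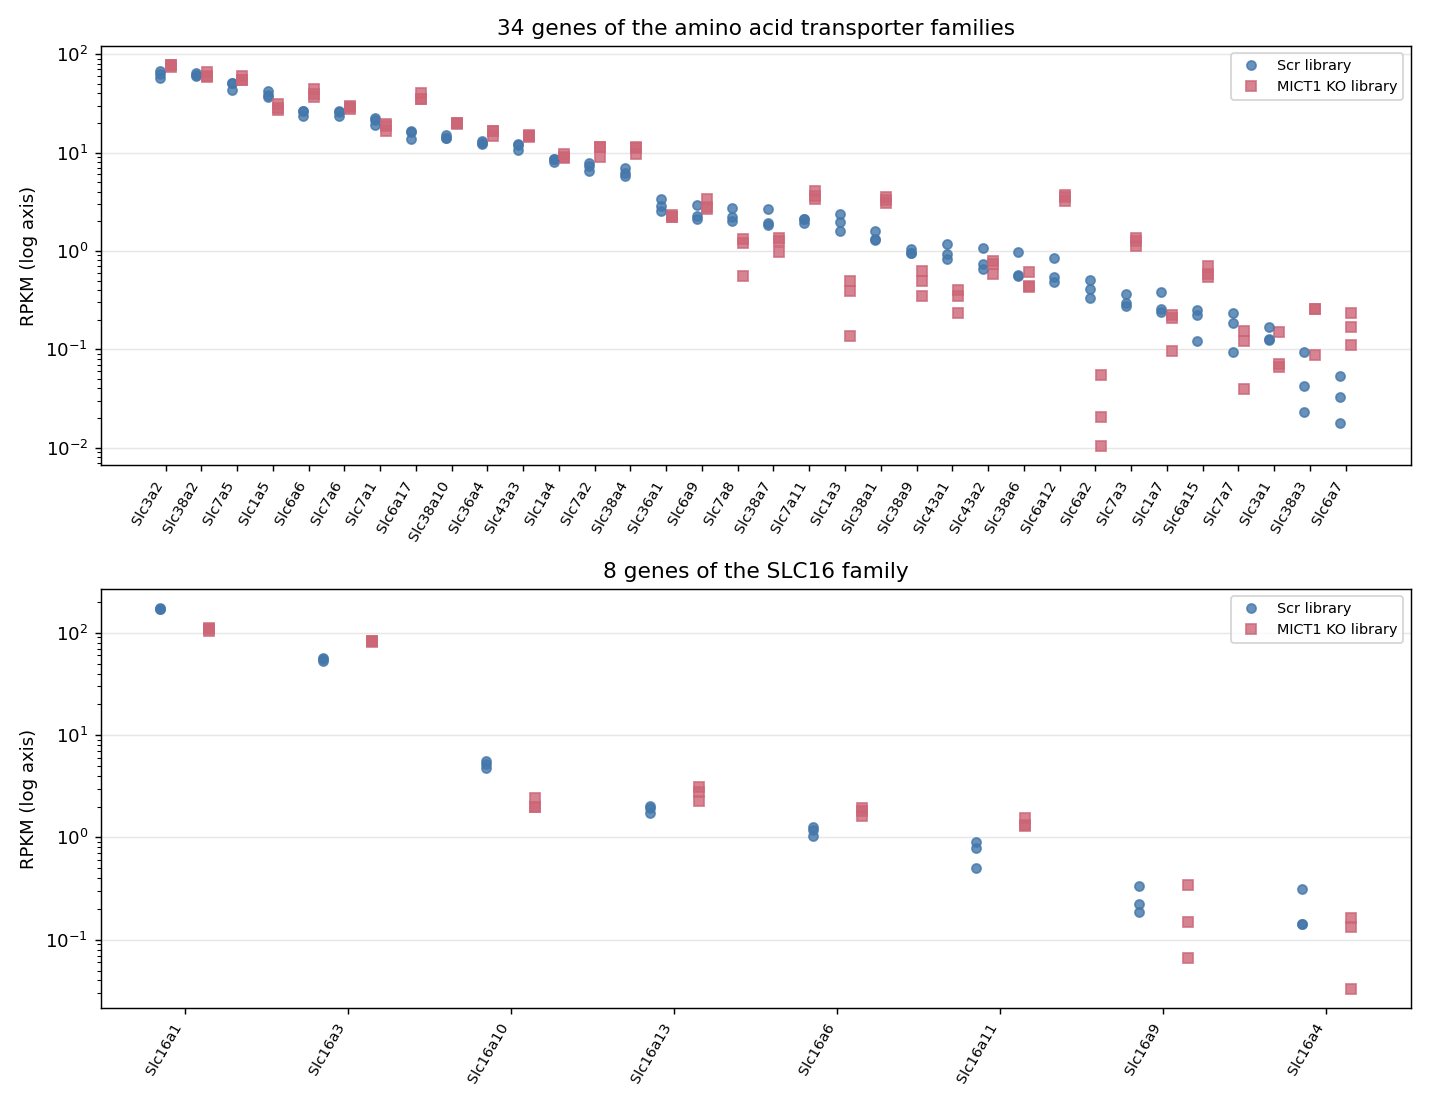
RPKM (log axis) of each transporter gene in each of the 6 libraries, with the 34 genes of the amino acid families above and 8 SLC16 genes below, ordered by their mean in Scr (blue circles, Scr; red squares, MICT1 KO). Slc3a2, Slc38a2 and Slc16a1 head their panels, and the widest gaps between the groups lie among genes of low level such as Slc6a2, Slc6a12 and Slc1a3.

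Of the 34 amino acid transporter genes, 30 passed the filter on low values (10 or more in 3 or more of the libraries) and could be tested. Of these 30, 15 were higher and 9 lower in MICT1 KO cells with an adjusted p under 0.05 (limma-trend), that is 80% against 56.9% of all genes tested. A fold change of at least 2 was reached by 10 of the 30, 5 in each direction (33.3%, against 13.7% of all genes tested, 5.76% lower and 7.99% higher). Their median log2 fold change was 0.21, against -0.0053 over all genes tested. In the SLC16 family 8 of 9 genes were tested, of which 5 were higher and 2 lower, with a median of 0.54. With only genes at 4 RPKM or more in some library tested, 11 of 15 amino acid transporters were higher and 2 lower, and of 4 SLC16 genes 2 were higher and 2 lower. Of all 8500 genes tested with that filter 5472 were called, 2620 higher and 2852 lower. The Scr and MICT1 KO values did not overlap in 31 of the 38 tested transporters, 81.6% against 62% of all genes tested. The rule did not choose these genes for a change, but it was made with results of these data known, and a count over a list is given here as a description.

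The large changes lay among genes of low level. Of the 13 transporters at 10 RPKM or more in Scr, 12 were called, but only Slc6a17 changed at least 2-fold. Of the 30 below that level, 25 were tested, 19 were called and 11 changed at least 2-fold, 6 lower and 5 higher. Over all genes tested, of any level, 56.9% were called and 13.7% changed at least 2-fold. The shares of all genes above and below 10 RPKM were not determined, so this split is not shown to be particular to the transporters. The exception among the genes of high level was Slc38a2, described below.

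**Figure D2:**
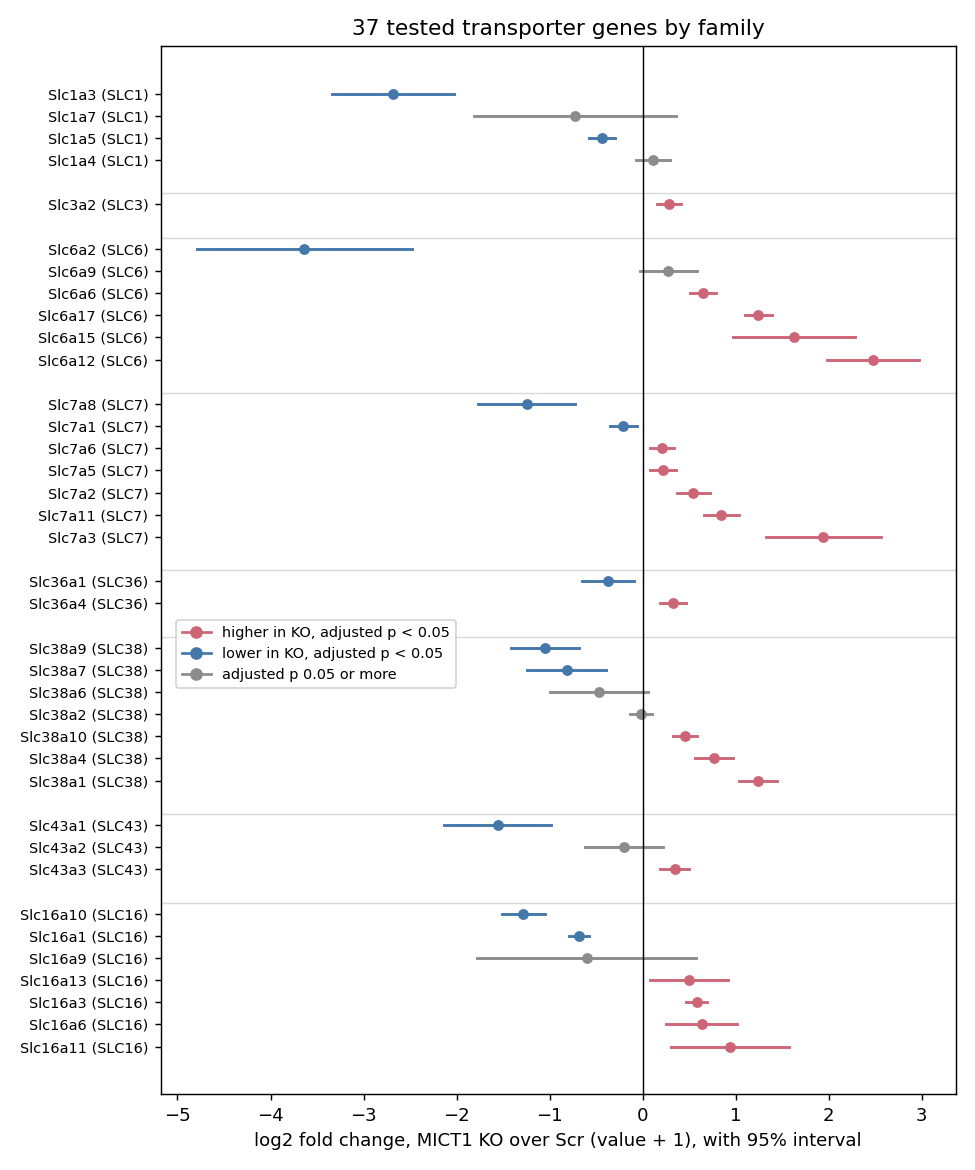
Log2 fold change of MICT1 KO over Scr on the log2(value + 1) scale with its 95% interval (limma-trend, n = 3 and 3) for 37 tested transporter genes, grouped by family (red, higher; blue, lower; gray, adjusted p of 0.05 or more). The changes run from -3.64 for Slc6a2 to 2.48 for Slc6a12, and each family with more than 1 tested gene except SLC1 holds called genes on both sides of 0.

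Of the heteromeric exchangers, the heavy chain Slc3a2 and 3 of the 4 tested light chains rose. All 5 tested genes were called, 80% higher and 20% lower, against 28.5% higher and 28.3% lower of all genes tested. The heavy chain Slc3a2 (chromosome 19, from 8706882 to 8723369, GRCm38) had values of 3592, 3934 and 3294 in Scr against 4288, 4424 and 4452 in MICT1 KO. All MICT1 KO values lay above the Scr values (log2 fold change 0.29, SE 0.0616, limma-trend adjusted p = 0.000491). The light chain Slc7a5 (LAT1), which imports leucine and other large neutral amino acids, had values of 3062, 3132 and 2630.5 in Scr against 3627, 3287 and 3330.4 in MICT1 KO. The groups did not overlap, but the rise was small (log2 fold change 0.22, SE 0.0666, limma-trend adjusted p = 0.00852) and was not called without Scr replicate 3 (log2 fold change 0.14, adjusted p = 0.0734). The same library decided the call of Slc7a6 (y+LAT2), which exchanges arginine for neutral amino acids (log2 fold change 0.20, adjusted p = 0.00854, and log2 fold change 0.16, adjusted p = 0.0525 without it).

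Slc7a11 (xCT), the light chain that imports cystine in exchange for glutamate, rose more. Its values were 434, 491 and 477 in Scr against 828, 931 and 770.2 in MICT1 KO. It was 1.80-fold higher in MICT1 KO libraries (log2 fold change 0.85, SE 0.0923, limma-trend adjusted p = 1.10e-07), with groups that did not overlap. Slc7a8 (LAT2), a light chain of broad substrate range, fell instead. Its values were 179, 167 and 223 in Scr against 100.1, 45.3 and 107 in MICT1 KO, where the lowest value, that of MICT1 KO replicate 2, was also the farthest from its group (log2 fold change -1.25, SE 0.25, limma-trend adjusted p = 0.000239). The ratio of Slc7a5 to Slc7a8 on the RPKM scale was 15.9 to 25.3 over the Scr and 42.1 to 97.9 over the MICT1 KO libraries. In sum the 5 light chains, Slc7a7 included, summed to 71.6 to 81.8 RPKM in Scr and 88.3 to 92.3 RPKM in MICT1 KO libraries. Slc3a1 (rBAT) and Slc7a7 (y+LAT1) stayed under the filter, with values of at most 6.30 and 13.0. Part of the exons of both overlap a gene on the opposite strand (Prepl and Oxa1l), and the values of Slc3a1 were not whole reads in 6 of 6 libraries.

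Genes that use cystine moved in both directions. Of 14 listed genes of glutathione and cysteine metabolism, 12 were tested, of which 7 were lower and 4 higher (91.7% called, against 56.9% of all genes tested, 28.3% lower and 28.5% higher). Gclc and Gclm, the subunits of the enzyme that starts glutathione synthesis from cysteine, were both lower (log2 fold change -0.78, adjusted p = 4.82e-09, and log2 fold change -0.92, adjusted p = 6.38e-11). Glutathione reductase, Gsr, fell from 2356 ± 205 (Scr, SD, n = 3) to 1049.6 ± 80.8 (MICT1 KO, SD, n = 3) (log2 fold change -1.17, SE 0.0742, limma-trend adjusted p = 2.46e-11). Cth, which makes cysteine from cystathionine, rose (log2 fold change 0.97, adjusted p = 6.15e-07), as did Ggt7 (log2 fold change 1.73, adjusted p = 6.53e-09) and Chac2 (log2 fold change 0.57, adjusted p = 0.0226), whose call was lost without Scr replicate 1 (log2 fold change 0.51, adjusted p = 0.0677), Scr replicate 3 (log2 fold change 0.47, adjusted p = 0.0839), MICT1 KO replicate 1 (log2 fold change 0.56, adjusted p = 0.0531) or MICT1 KO replicate 2 (log2 fold change 0.54, adjusted p = 0.0647).

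Expression of Slc7a11 is known to respond to amino acid shortage through the factor ATF4 and paired elements before its start. RefSeq promoter windows (GRCm38.p6) were found for 29 of the 43 transporter genes. The 250 bases before the start set by each window were searched on both strands. The motifs were the C/EBP-ATF response element TGATGNAA, the cAMP response element TGACGTCA and its shorter form TGACGT, which TGACGTCA contains. TGATGNAA was found in 2 of the 29 genes, Slc7a11 and Slc7a7 (6.90%, against 3.91% of all 27025 genes with a window and 2.36% of the 10578 of them in the deposited table). TGACGTCA was found in 1, Slc38a6 (3.45%, against 1.77% and 2.99%). TGACGT was found in 5, Slc1a3, Slc1a4, Slc7a6, Slc16a3 and Slc38a6 (17.2%, against 7.29% and 11.4%), of which Slc7a6 and Slc16a3 were higher, Slc1a3 was lower and Slc1a4 and Slc38a6 were not called in MICT1 KO cells. The stretches around the matches are shown for 4 of these genes. Slc7a11 and Slc16a3 were higher, Slc1a3 was lower and Slc38a6 was not called. All cultures received forskolin, so any link between these letters and forskolin was not tested. The stretches read 5′ to 3′ on the strand of the gene, and capitals mark the matches.
Slc7a11, chr3:50443614-50443719, strand -: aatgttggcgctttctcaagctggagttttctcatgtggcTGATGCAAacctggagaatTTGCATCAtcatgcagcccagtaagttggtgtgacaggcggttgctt
Slc16a3, chr11:120948998-120949066, strand +: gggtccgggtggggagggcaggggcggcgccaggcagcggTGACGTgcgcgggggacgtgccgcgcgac
Slc1a3, chr15:8710808-8710860, strand -: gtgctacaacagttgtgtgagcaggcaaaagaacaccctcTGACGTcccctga
Slc38a6, chr12:73286687-73286774, strand +: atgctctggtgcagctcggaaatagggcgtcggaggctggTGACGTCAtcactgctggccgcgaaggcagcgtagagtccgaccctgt
The start is that of the promoter window, which can differ from the outer end of the gene. The stretches of Slc7a11 and Slc16a3 lie inside the gene spans (chromosome 3, from 50364936 to 50499087, and chromosome 11, from 120948484 to 120959000). That of Slc38a6 reaches past the first base of the gene span, 73286739. In Slc7a11 the 2 matches begin 66 and 47 bases before the window's start and lie on opposite strands. They share the letters of TGATGCAA read from either side. In Slc38a6 the full cAMP response element begins 121 bases before the window's start. A match says only that these letters lie in the window.

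Of the ATF4-linked amino acid response genes on the list, 39 were tested, with 18 higher and 9 lower in MICT1 KO cells (69.2% called, against 56.9% of all genes tested) and a median log2 fold change of 0.093. The serine synthesis enzymes Phgdh (0.67), Psat1 (0.52) and Psph (0.48) were higher (log2 fold changes, each with an adjusted p under 0.05), as was asparagine synthetase, Asns (log2 fold change 0.38, adjusted p = 0.000226). Atf4 itself rose a little, from 6141 ± 647 (Scr, SD, n = 3) to 6881 ± 257 (MICT1 KO, SD, n = 3) (log2 fold change 0.17, SE 0.0654, limma-trend adjusted p = 0.0326). Its values were 6456, 6570 and 5396 in Scr against 7160, 6652 and 6833 in MICT1 KO, so that much of the difference lay in Scr replicate 3. The same library had the lowest Scr value of Phgdh, Psat1, Psph, Asns, Atf3 and Aldh1l2, but not of Cbs. Atf3, a stress factor, rose most (log2 fold change 2.03, adjusted p = 5.26e-09), followed by Cbs of the transsulfuration pathway (log2 fold change 1.5, adjusted p = 0.0113) and the mitochondrial folate enzyme Aldh1l2 (log2 fold change 1.13, adjusted p = 4.13e-12). The call of Cbs was lost without Scr replicate 1 (log2 fold change 0.85, adjusted p = 0.0781) or MICT1 KO replicate 3 (log2 fold change 1.30, adjusted p = 0.0540). Other genes of the list went down, among them Vldlr (log2 fold change -0.81, adjusted p = 1.15e-06), the mTORC1 inhibitor Ddit4 (log2 fold change -0.61, adjusted p = 7.24e-09) and the transaminase Gpt2 (log2 fold change -0.45, adjusted p = 0.00228), and the pseudokinase Trib3 was not called (log2 fold change -0.09, adjusted p = 0.508). The list thus moved in both directions.

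The 3 cationic amino acid carriers did not move together. Slc7a1 (CAT-1), the main arginine and lysine importer of most cells, was slightly lower, from 3932 ± 343 (Scr, SD, n = 3) to 3404 ± 270.3 (MICT1 KO, SD, n = 3) (log2 fold change -0.21, SE 0.0683, limma-trend adjusted p = 0.0137), and its groups overlapped. That call was lost without Scr replicate 2 (log2 fold change -0.15, adjusted p = 0.114) or MICT1 KO replicate 1 (log2 fold change -0.14, adjusted p = 0.0758). Slc7a2 (CAT-2) rose 1.46-fold (log2 fold change 0.55, SE 0.0843, limma-trend adjusted p = 1.25e-05). Slc7a3 (CAT-3), known mainly from brain, had values of 16.8, 23.2 and 18.3 in Scr against 84.8, 69.5 and 76.7 in MICT1 KO, which is 3.96-fold higher from a low base (log2 fold change 1.94, SE 0.30, limma-trend adjusted p = 1.13e-05). The sum of the 3 genes overlapped between the groups, at 25.7 to 29.9 RPKM in Scr and 26.8 to 32.0 RPKM in MICT1 KO libraries, while the share of Slc7a1 in it was 72.6% to 74.4% in Scr and 59.8% to 61.1% in MICT1 KO libraries. By the length of the longest coding transcript that share was 78.5% to 80% and 67.1% to 68.1%.

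In the SLC1 family the called genes were lower. Slc1a5 (ASCT2), the sodium-dependent exchanger that imports glutamine, had values of 2562, 2566 and 2879.8 in Scr against 1864, 1930.2 and 2129 in MICT1 KO. It was 1.35-fold lower in MICT1 KO libraries without overlap (log2 fold change -0.43, SE 0.0663, limma-trend adjusted p = 1.06e-05). Slc1a3 (GLAST), a glutamate carrier best known from astrocytes, had values of 270.0, 227 and 333 in Scr against 55.3, 19.0 and 68.4 in MICT1 KO. Its fall was 5.82-fold (log2 fold change -2.68, SE 0.31, limma-trend adjusted p = 3.06e-07), and MICT1 KO replicate 2 had the lowest value, as for Slc7a8. That library also had the lowest summed level of adipocyte markers, 952 CPM against 1174 and 1349 CPM in MICT1 KO replicates 1 and 3. Whether the 2 genes vary with the adipocyte markers was not tested. The serine and alanine exchanger Slc1a4 (ASCT1) was not called (log2 fold change 0.11, adjusted p = 0.307, 95% interval from -0.08 to 0.30), and neither was Slc1a7 (log2 fold change -0.73, adjusted p = 0.246, 95% interval from -1.81 to 0.36), whose values reached at most 21.3.

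Genes of glutamine and glutamate metabolism, the intracellular side of this transport, held 7 higher and 2 lower genes of 11 tested (81.8% called, against 56.9% of all genes tested, 28.5% higher and 28.3% lower). The cytosolic transaminase Got1 (1.03) and ornithine aminotransferase, Oat (0.59), rose (log2 fold changes, adjusted p = 1.30e-08 and 1.10e-08). The alanine transaminases were lower, Gpt2 as given above and Gpt with a log2 fold change of -0.85 (adjusted p = 0.0219), whose call was lost without Scr replicate 1 (log2 fold change -0.78, adjusted p = 0.0783), Scr replicate 2 (log2 fold change -0.83, adjusted p = 0.0636) or MICT1 KO replicate 2 (log2 fold change -0.75, adjusted p = 0.0626).

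The SLC38 family held the member with the highest deposited value of the amino acid families, and it was not called. Slc38a2 (SNAT2), the sodium-coupled importer of small neutral amino acids that is known to be induced by amino acid shortage, had values of 8618, 9477 and 8874 in Scr against 8440.3, 9542 and 8708 in MICT1 KO. The groups overlapped throughout, and the difference was small with a narrow interval (log2 fold change -0.02, adjusted p = 0.832, 95% interval from -0.14 to 0.10). Its neighbours on chromosome 15 both rose. Slc38a1 (SNAT1; chromosome 15, from 96571418 to 96643438), which imports glutamine, had values of 365, 452 and 365 in Scr against 932, 999.9 and 854 in MICT1 KO. Slc38a4 (SNAT4; chromosome 15, from 96994816 to 97055956) had values of 476, 443 and 399 in Scr against 787, 670.1 and 791 in MICT1 KO. Neither overlapped between the groups (log2 fold change 1.24, adjusted p = 1.01e-09 for Slc38a1, and log2 fold change 0.77, adjusted p = 9.40e-07 for Slc38a4, limma-trend). Slc38a2 lies between them (chromosome 15, from 96687392 to 96699728). The share of Slc38a2 in the summed RPKM of the 8 family genes was 69.6% to 71.8% in Scr and 61.5% to 65.3% in MICT1 KO libraries.

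The members of the family found on the lysosome were lower. Slc38a9, the arginine sensor that acts on mTORC1, had values of 256, 266 and 288 in Scr against 96.3, 135 and 168 in MICT1 KO. Slc38a7 (SNAT7), which exports glutamine from the lysosome, had values of 177, 125 and 129 in Scr against 66.7, 85.3 and 90.2 in MICT1 KO. In both genes every MICT1 KO value was under the Scr values (log2 fold change -1.05, adjusted p = 3.08e-05 for Slc38a9, and log2 fold change -0.82, adjusted p = 0.00179 for Slc38a7, limma-trend). The widely expressed Slc38a10 rose instead, from 1517 ± 73.3 (Scr, SD, n = 3) to 2079.9 ± 33.1 (MICT1 KO, SD, n = 3) (log2 fold change 0.46, SE 0.0619, limma-trend adjusted p = 2.42e-06). Slc38a6 was not called (log2 fold change -0.47, adjusted p = 0.124, 95% interval from -1.0 to 0.06). Slc38a3 (SNAT3) did not pass the filter, with values of 1.98, 3.71 and 8.14 in Scr against 7.63, 22.1 and 21.8 in MICT1 KO. Of the called members of the amino acid families, Slc38a7 had values that were not whole reads in 3 of 6 libraries and Slc38a9 in 1. The same held in 2 libraries each for Slc7a8 and Slc6a12 and in 1 for Slc43a1.

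The SLC36 carriers, in part lysosomal, split. Slc36a4 (PAT4) had values of 1382, 1325 and 1342 in Scr against 1578, 1744 and 1751 in MICT1 KO, a rise of 1.25-fold (log2 fold change 0.32, SE 0.0656, limma-trend adjusted p = 0.000273). Slc36a1 (PAT1) was lower, from 268 ± 33.9 (Scr, SD, n = 3) to 206 ± 7.17 (MICT1 KO, SD, n = 3) (log2 fold change -0.37, SE 0.13, limma-trend adjusted p = 0.0242), and was not called without Scr replicate 1 (log2 fold change -0.28, adjusted p = 0.131), Scr replicate 2 (log2 fold change -0.38, adjusted p = 0.0560), MICT1 KO replicate 2 (log2 fold change -0.35, adjusted p = 0.0570) or MICT1 KO replicate 3 (log2 fold change -0.36, adjusted p = 0.0551). In the SLC43 family, Slc43a1 (LAT3), a carrier of branched-chain amino acids, had values of 108, 78.8 and 86.5 in Scr against 21.9, 32.7 and 37.3 in MICT1 KO. It was 2.97-fold lower (log2 fold change -1.56, SE 0.28, limma-trend adjusted p = 6.57e-05). The nucleobase carrier Slc43a3 had values of 864, 779.6 and 887 in Scr against 1089, 1037 and 1082 in MICT1 KO, higher without overlap (log2 fold change 0.34, adjusted p = 0.000598), and Slc43a2 (LAT4) overlapped (log2 fold change -0.20, adjusted p = 0.412, 95% interval from -0.62 to 0.22).

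The SLC6 family held the largest fall (Slc6a2) and the largest rise (Slc6a12) of the amino acid families. Slc6a17 (chromosome 3, from 107467548 to 107518018), a carrier of neutral amino acids in synaptic vesicles of neurons, was abundant in these cells, at 15.5 ± 1.51 RPKM (SD, n = 3) in Scr and 36.8 ± 3.10 RPKM (SD, n = 3) in MICT1 KO libraries. Its deposited values were 2734, 2784 and 2324 in Scr against 5868, 6761 and 5914 in MICT1 KO. The rise of 2.36-fold (log2 fold change 1.24, SE 0.0698, limma-trend adjusted p = 3.11e-12) made it the only transporter of at least 10 RPKM in Scr that changed more than 2-fold. Slc6a6 (TauT), the taurine carrier, had values of 3571, 3728 and 3240.0 in Scr against 5101, 6131 and 5354 in MICT1 KO, a rise of 1.57-fold (log2 fold change 0.65, SE 0.0675, limma-trend adjusted p = 5.00e-08). The enzymes that make taurine from cysteine went the other way. Cdo1 fell from 566 ± 83.4 (Scr, SD, n = 3) to 113 ± 16.7 (MICT1 KO, SD, n = 3) (log2 fold change -2.31, SE 0.14, limma-trend adjusted p = 1.51e-11) and Csad fell from 472 ± 60.1 (Scr, SD, n = 3) to 143 ± 23.1 (MICT1 KO, SD, n = 3) (log2 fold change -1.72, SE 0.14, limma-trend adjusted p = 1.83e-09).

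Slc6a12 (BGT1), the betaine and GABA carrier that responds to osmotic stress, had values of 41.5, 27.8 and 24.4 in Scr against 161, 185 and 176 in MICT1 KO. Every MICT1 KO value was well above the Scr values (log2 fold change 2.48, SE 0.24, limma-trend adjusted p = 1.78e-08). Slc6a15, a branched-chain amino acid and proline carrier of neurons, rose as well, at 31.7, 28.7 and 15.3 in Scr against 69.6, 72.7 and 88.1 in MICT1 KO (log2 fold change 1.63, SE 0.31, limma-trend adjusted p = 0.000156). Slc6a2, the noradrenaline carrier, showed the largest fall of all members. Its values were 51.4, 42.6 and 34.6 in Scr against 5.72, 1.05 and 2.07 in MICT1 KO, which amounts to a few reads in MICT1 KO cells (log2 fold change -3.64, SE 0.55, limma-trend adjusted p = 1.03e-05), and with a pseudocount of 5 in place of 1 the log2 fold change was -2.62. Slc6a9 (GlyT1), the glycine carrier, was not called (log2 fold change 0.28, adjusted p = 0.120, 95% interval from -0.03 to 0.58), but it was without Scr replicate 1 (log2 fold change 0.40, adjusted p = 0.0388), and its exons overlap those of Ccdc24 and B4galt2 on the opposite strand. Slc6a7 stayed under the filter, with a highest value of 13.3.

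The monocarboxylate carriers changed in their composition. Slc16a1 (MCT1; chromosome 3, from 104638664 to 104658462) had the highest RPKM of all 43 transporters, although by the longest coding transcript Slc38a2 stood above it in MICT1 KO cells (117 against 108 RPKM). Its values were 12277, 12921 and 12511 in Scr against 8078, 7513 and 7830.1 in MICT1 KO. The fall was 1.61-fold and larger than the spread between libraries (log2 fold change -0.69, SE 0.0517, limma-trend adjusted p = 3.68e-10). Slc16a3 (MCT4; chromosome 11, from 120948484 to 120959000), the carrier known for lactate export from glycolytic cells, rose. Its values were 4572, 5034 and 4824 in Scr against 7174, 7224 and 7149.6 in MICT1 KO, a change of 1.49-fold (log2 fold change 0.58, SE 0.0530, limma-trend adjusted p = 7.86e-09). The ratio of Slc16a1 to Slc16a3 on the RPKM scale was 3.08 to 3.23 in the Scr libraries and 1.25 to 1.35 in the MICT1 KO libraries, and by the longest coding transcript 2.51 to 2.63 and 1.02 to 1.10. Slc16a1 remained the more abundant of the pair in every library, and both held 95.4% to 96.0% of the RPKM of the family in Scr and 92.5% to 93.1% in MICT1 KO libraries.

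These carriers need a chaperone to reach the membrane, basigin (Bsg) or embigin (Emb). Bsg rose from 52137 ± 3553 (Scr, SD, n = 3) to 60614 ± 1894 (MICT1 KO, SD, n = 3) (log2 fold change 0.22, SE 0.0606, limma-trend adjusted p = 0.00423) and Emb rose from 1326 ± 71.4 (Scr, SD, n = 3) to 2407 ± 112 (MICT1 KO, SD, n = 3) (log2 fold change 0.86, SE 0.0645, limma-trend adjusted p = 3.50e-10). Lactate dehydrogenase A, Ldha, was not called (log2 fold change 0.01, adjusted p = 0.937, 95% interval from -0.11 to 0.13), and neither was Ldhb (log2 fold change -0.24, adjusted p = 0.138, 95% interval from -0.53 to 0.04). Mpc1 and Mpc2, the subunits of the mitochondrial pyruvate carrier, were both at least 2-fold lower (log2 fold change -1.22, adjusted p = 4.84e-10 for Mpc1, and log2 fold change -1.73, adjusted p = 2.65e-13 for Mpc2, limma-trend). The list of carrier partners, which is not limited to SLC16, held 4 higher and 3 lower genes of 7 tested (100% called, against 56.9% of all genes tested). Besides Bsg and Emb, Sgk1, a kinase known to act on several amino acid carriers, rose (log2 fold change 1.66, adjusted p = 7.64e-16). Itgb1 rose too (log2 fold change 0.31, limma-trend adjusted p = 2.25e-05). The ubiquitin ligases Nedd4l (log2 fold change -0.43, adjusted p = 0.00464) and Nedd4 (log2 fold change -0.21, adjusted p = 0.00181) were lower, as was Arl6ip5 (log2 fold change -0.31, limma-trend adjusted p = 0.00070).

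Slc16a10 (TAT1; chromosome 10, from 40033532 to 40142270), the carrier of aromatic amino acids in this family, had values of 655, 581 and 632 in Scr against 296, 238 and 236 in MICT1 KO. Every MICT1 KO value lay under the Scr values, a fall of 2.43-fold (log2 fold change -1.28, SE 0.11, limma-trend adjusted p = 3.88e-09).

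**Figure D3:**
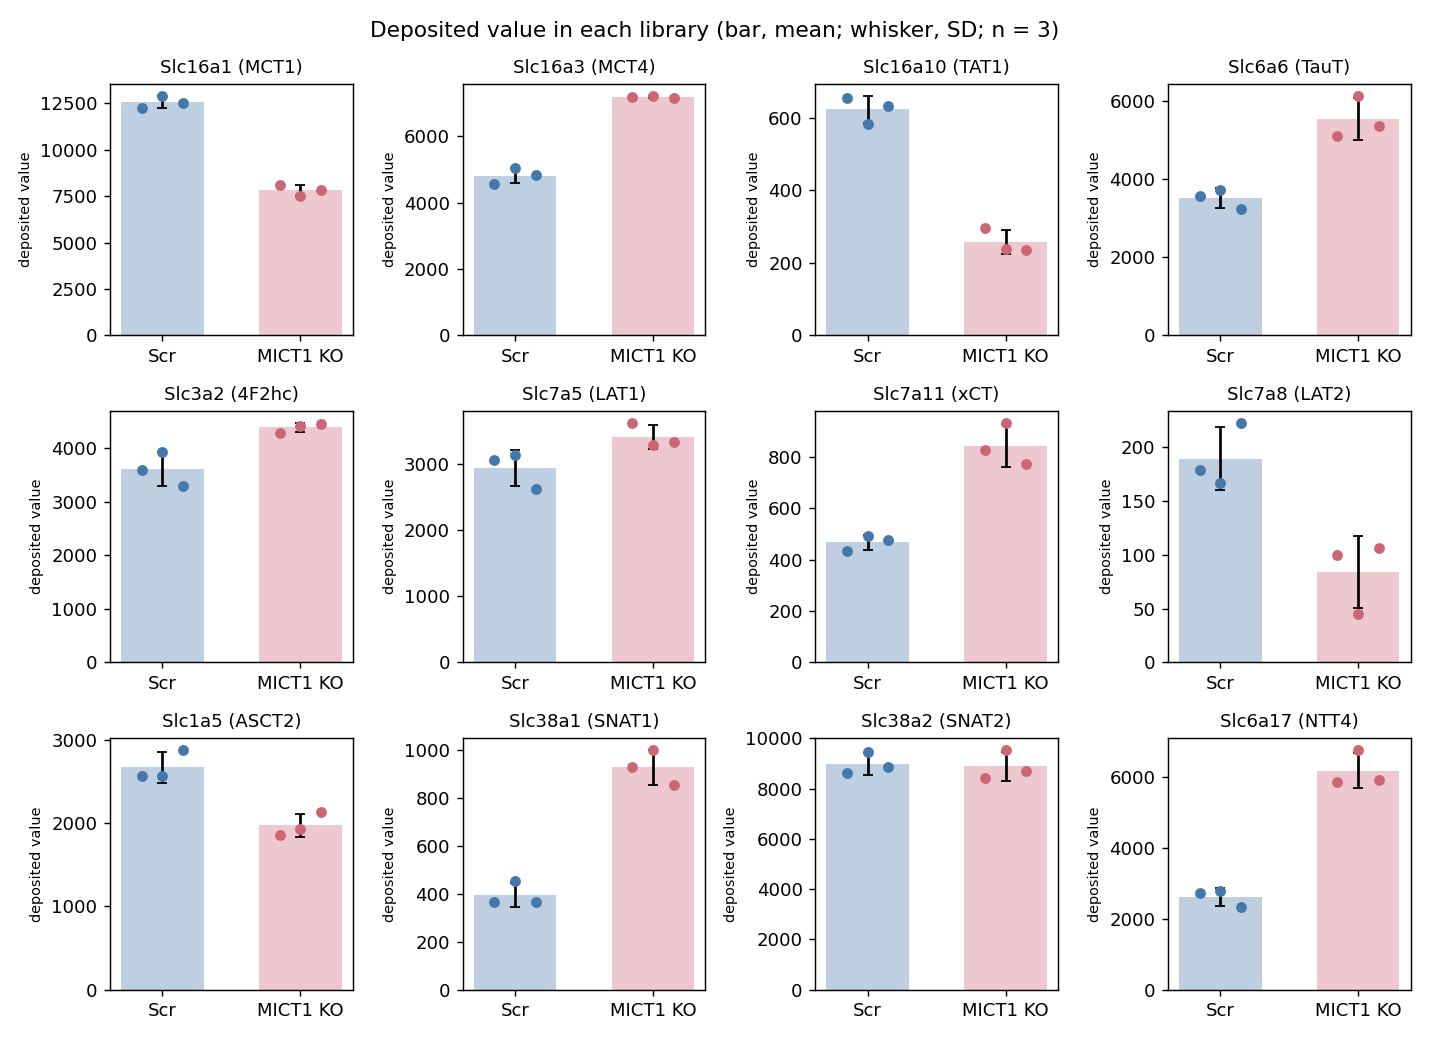
Deposited value of 12 transporter genes in each library (points; bars, mean; whiskers, SD; n = 3 a group; linear axes from 0). The Scr and MICT1 KO points are apart in each panel but that of Slc38a2, where they overlap.

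The other SLC16 genes were of low level. Slc16a6 (MCT7), which exports ketone bodies, had values of 92.1, 83.0 and 101 in Scr against 157, 129 and 144 in MICT1 KO (log2 fold change 0.63, SE 0.18, limma-trend adjusted p = 0.00579). Its values were not whole reads in 6 of 6 libraries and its exons overlap Amz2 and Arsg on the opposite strand, so this change is uncertain. Slc16a11 (MCT11), which has been described as a pyruvate carrier, had values of 20.8, 33.4 and 37.7 in Scr against 55.3, 64.3 and 53.9 in MICT1 KO (log2 fold change 0.93, SE 0.30, limma-trend adjusted p = 0.0127), and was not called without Scr replicate 1 (log2 fold change 0.69, adjusted p = 0.0675) or MICT1 KO replicate 2 (log2 fold change 0.86, adjusted p = 0.0503). Its neighbour on chromosome 11, Slc16a13, rose with an adjusted p close to the threshold (log2 fold change 0.50, SE 0.20, limma-trend adjusted p = 0.0418), and lost the call in each of the fits without Scr replicate 1, 2 or 3 or MICT1 KO replicate 1 or 2, where its adjusted p ran from 0.0526 to 0.164. Slc16a9 was not called (log2 fold change -0.60, adjusted p = 0.381, 95% interval from -1.78 to 0.58), and Slc16a4 stayed under the filter with a highest value of 19.8. Slc7a6os, the member that is no transporter, was higher (log2 fold change 0.27, adjusted p = 0.00397).

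**Figure D4:**
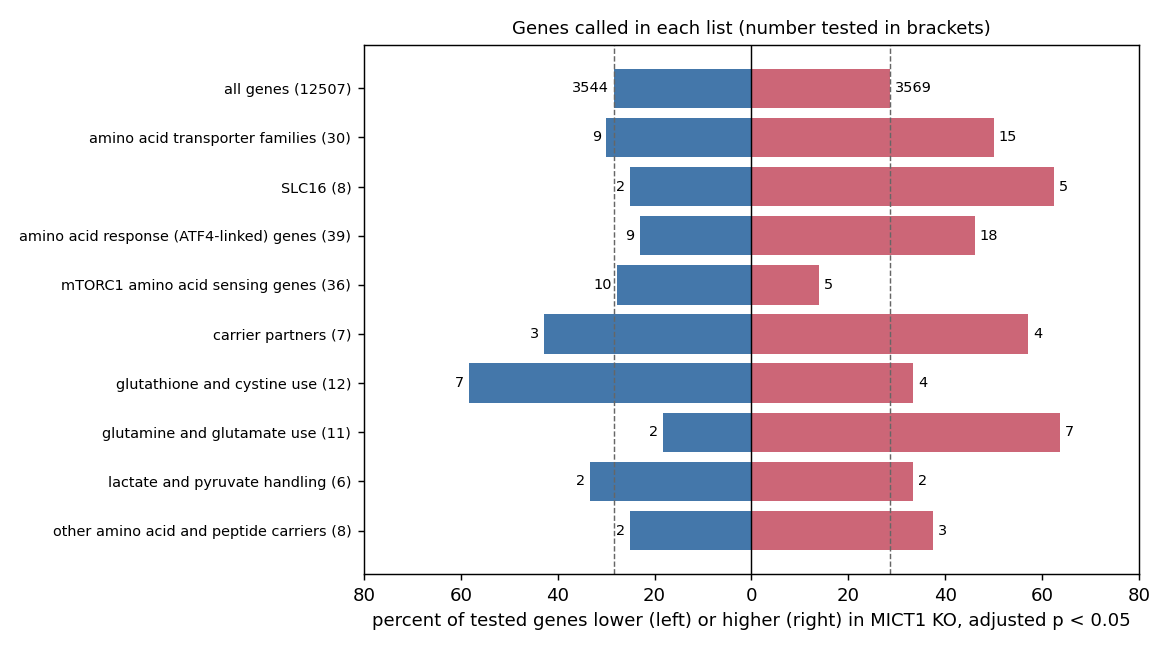
Percent of the tested genes of each list that were lower (blue, left) or higher (red, right) in MICT1 KO cells at an adjusted p under 0.05 by limma-trend; numbers beside the bars count genes and dashed lines give the share of all genes tested. The higher share is 50% for the amino acid transporter families and 62.5% for SLC16, against 28.5% of all genes, and the lower shares are 30% and 25% against 28.3%.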

How the data were processed

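Strand-specific total RNA libraries from 3 Scr and 3 MICT1 KO cultures were sequenced in pairs, and the authors aligned them to NCBI38/mm10 in Partek. The processing notes of the labels also name STAR and DESeq2, without their roles. The annotation, the counting step and how the values were normalized are not given in the sources used here. The authors deposited a normalized signal per gene, read as estimated reads divided by a size factor, because 88.8% to 90.3% of the values under 20 are whole multiples (within 0.01) of a step that differs between libraries. Multiplied back, the totals are 15440309 to 17917646 reads per library. No value is 0, so genes at 0 in any library are not analysed here.

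The test was limma-trend on log2(value + 1) (limma 3.58.1, R 4.3.3) over the 12507 genes at 10 or more in at least 3 libraries, with Benjamini-Hochberg adjustment over all of them. Fold changes on this scale understate those of low genes. Folds quoted as such are ratios of the group means. CPM and RPKM used the total of each library and the union of exons in GENCODE vM21, found for 13142 genes (98.9%). Gene positions come from RefSeq gene records (GRCm38), strands and exon overlaps from GENCODE vM21, and promoter windows from RefSeq (GRCm38.p6). Orientation of the windows was checked against transcript starts, which held 34 of 46 member windows in the forward and 0 in the reverse direction. The procedure was tested on simulated data.

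Members and gene lists were chosen with earlier results of these data known. Values in every library are given for members with an adjusted p under 0.05 and an absolute log2 fold change of at least 0.58, for the most abundant member of each family, and, after their values were seen, for Slc16a3 and Slc38a3. Of the lists, the 3 largest called changes in each direction are named, apart from results that are not reported here, and others in the text were named after their values were seen. Sums and ratios of genes were also chosen then and are given without a test. An exact permutation test of 3 against 3 libraries cannot give p below 0.1, and no such test was used for single genes. The labels do not say whether cultures were differentiated separately, and the p-values measure the spread between these libraries. Deviations of same-numbered Scr and MICT1 KO libraries correlated only weakly, which cannot tell whether they were prepared together.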

Additional observations from a re-analysis of the deposited data

How the results depend on the processing

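The alternatives were library totals or the trimmed mean of M values as scaling, limma-voom, no filter, filters at 4 CPM or 4 RPKM in the highest library, pseudocounts of 0.5 and 5, the replicate number as a block, and each library left out in turn. They gave 562 values for the 39 tested members, of which 543 kept direction and side of the threshold, 16 lost the call, 1 gained it and 2 changed sign. The sign changes were those of Slc38a2, which is not called, without Scr replicate 2 (0.023) and without MICT1 KO replicate 1 (0.021), in a range from -0.067 to 0.023 over the left-out libraries. The count of amino acid transporters called, 24 of 30 (9 lower, 15 higher), fell to 13 of 15 (2 lower, 11 higher) with the filter at 4 RPKM, and that of SLC16, 7 of 8 (2 lower, 5 higher), to 4 of 4 (2 lower, 2 higher), since fewer genes were tested. Of all genes 5472 of 8500 were called with that filter. Under the other alternatives the counts of both transporter sets stayed within 1.5 times the reported ones. With each library left out the counts lay between 22 and 24 for the amino acid families, 5 and 7 for SLC16, 22 and 25 for the amino acid response genes, 12 and 16 for mTORC1 sensing, 30 and 33 for the remaining lists and 6383 and 6678 for all genes.

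With the replicate block 24 amino acid transporters and 6 SLC16 genes were called, and 7055 genes in all. The SLC16 gene that lost its call with the block was Slc16a13 (0.50, adjusted p = 0.0518 from limma-trend). Deviations of same-numbered libraries correlated at -0.024, -0.015 and 0.064. With 3 libraries a group, this cannot tell whether same-numbered cultures were handled together. Among the listed genes named, 17 of 527 values lost the call and 0 changed sign. Low genes such as Slc6a2, Slc6a15, Slc7a3 and Slc16a11 rest on few reads, and depth limits what can be said of the 5 transporters under the filter. Without a filter Slc38a3 (1.72, adjusted p = 0.0184 from limma-trend) and Slc6a7 (1.85, adjusted p = 0.0210) were called.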

Other observations

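The machinery that reports amino acids to mTORC1, the growth kinase that many of these carriers feed, held called genes in both directions. Of 36 listed genes, all tested, 10 were lower and 5 higher in MICT1 KO cells (41.7%, against 56.9% of all genes tested), with a median log2 fold change of -0.12. The lysosomal transcription factor Tfeb fell from 346 ± 23.7 (Scr, SD, n = 3) to 161 ± 0.821 (MICT1 KO, SD, n = 3) (log2 fold change -1.09, SE 0.13, limma-trend adjusted p = 3.19e-07). The mTOR inhibitor Deptor (log2 fold change -0.81, adjusted p = 9.74e-06) and Mios, a subunit of the GATOR2 complex (log2 fold change -0.66, adjusted p = 6.83e-07), were lower as well, as was Rptor, the mTORC1 scaffold (log2 fold change -0.53, adjusted p = 1.55e-06). Castor1 and Castor2, the cytosolic arginine sensors, both rose (log2 fold changes 0.51 and 0.59), whereas the lysosomal arginine sensor Slc38a9 fell. Flcn, which acts on the Rag GTPases, rose (log2 fold change 0.51, adjusted p = 1.07e-05), and so did Sesn3 (log2 fold change 0.53, adjusted p = 0.0174), whose call was lost without Scr replicate 2 (log2 fold change 0.37, adjusted p = 0.114), Scr replicate 3 (log2 fold change 0.43, adjusted p = 0.0712) or MICT1 KO replicate 2 (log2 fold change 0.40, adjusted p = 0.0983). Mtor itself was not called (log2 fold change -0.07, adjusted p = 0.447).

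Of 9 amino acid and peptide carriers of other families in the table, 8 were tested, with 3 higher and 2 lower (62.5% called, near the 56.9% of all genes tested). The lysosomal peptide and histidine carrier Slc15a4 rose (log2 fold change 0.47, adjusted p = 0.000561), and so did the vesicular glutamate carrier Slc17a7, from a low level (log2 fold change 1.34, adjusted p = 0.00194). The lysosomal carriers Mfsd12 (log2 fold change -0.73, adjusted p = 2.47e-05) and Slc66a1, which exports cationic amino acids from the lysosome (log2 fold change -0.64, adjusted p = 0.00310), fell. The lysosomal nucleoside carrier Slc29a3 was close to the threshold (log2 fold change 0.31, adjusted p = 0.0477) and lost its call without a filter on low values (adjusted p = 0.0524) and in 4 of the 6 fits that left out a library.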
